A study of Mus musculus with 11 samples.

Results

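Levels of 9 receptor genes for colony-stimulating factors and cytokines were measured in primary mouse microglia: Csf1r, Csf2ra, Csf2rb, Csf2rb2, Csf3r, Il4ra, Il10ra, Il6ra and Ifngr1. They are 9 of the 16934 genes in the count table and were selected on their symbols with their levels in these libraries already known, so their values count as chosen by the data and are given below as a description. The fit over all genes also covers them, and how many were past its threshold is given only beside the share of all genes, as support for nothing. Beside neurons, Csf2rb2, the mouse interleukin-3 beta chain, was 5.52-fold higher with fibril-loaded neurons and 5.62-fold higher with untreated neurons than in microglia alone. Csf2rb, the beta chain shared by several receptors, was 1.97-fold and 2.74-fold, and Il4ra 2.04-fold and 3.35-fold, the level in microglia alone in the same order. Csf1r and Csf2ra showed no separation between groups. Ifngr1, the ligand-binding chain of the interferon-γ receptor, was lower in every library with fibril-loaded neurons than in any library of microglia alone.

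All microglia came from C57BL/6 pups aged 0 to 3 days and had been grown for 7 to 10 days in serum-containing medium without passage. In 4 libraries the microglia had spent 6 h with primary cortical neurons, 14 days in culture, that had taken up Atto488-labelled α-synuclein fibrils at 0.1 µM over 16 h and been washed. In 3 libraries the microglia had spent 6 h with neurons given no fibrils, and in 4 libraries the microglia had no added neurons. The labels do not say how microglia were separated from neurons after co-culture, nor whether each library stands for its own culture or animal. The errors and p-values therefore cover only the spread among these libraries, which may be technical. Libraries carry numbers by accession order in each group.

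CSF1R is a receptor tyrosine kinase, while the other receptors have no kinase of their own and signal through JAK kinases and STAT transcription factors bound to their tails. The alpha chains give specificity for a ligand, and shared chains complete the signalling complex: CSF2RB is common to the receptors for GM-CSF, interleukin-3 and interleukin-5, and IL2RG, IL13RA1, IL10RB, IL6ST and IFNGR2 partner the interleukin-4, interleukin-10, interleukin-6 and interferon-γ receptors. In the brain, CSF1R is known as the receptor that microglia need to survive, and its ligands are CSF1 and interleukin-34.

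Total counts were 8253070 to 14844071 with fibril-loaded neurons, 10925771 to 16802451 with untreated neurons and 10700940 to 14541179 in microglia alone. The ribosomal RNA gene Rn45s took 10.97% to 17.01%, 10.7% to 15.7% and 14% to 24.8% of the counts in these groups. The 16 microglia and macrophage markers summed to 18085 to 24232 CPM (counts scaled to a common library size by TMM) with fibril-loaded neurons, 20376 to 24643 CPM with untreated neurons and 17281 to 19323 CPM alone, and 14 of the 16 had counts in every library. The microglial markers P2ry12 and Tmem119 were low, with at most 20.5 and 75.8 CPM in any library and with 3 and 1 libraries at 0. The microglial markers Cx3cr1 and C1qa were high in every library. Cx3cr1 had 1204 to 2479 CPM with fibril-loaded neurons, 1535 to 2144 CPM with untreated neurons and 447 to 814 CPM alone. C1qa had 2481 to 4236, 2683 to 3715 and 2117 to 2615 CPM in the same order. The 16 neuron markers, of which Snap25 had no count in any library, summed to 791 to 1192 CPM, 632 to 881 CPM and 1289 to 1550 CPM in the same order, and most of that sum was Basp1. The neuron marker Dcx had 0 to 6.17, 0 to 0.121 and 15.9 to 66.5 CPM in the same order, so it was highest where no neurons were added. Among 12 markers of neutrophils and monocytes, which also carry Csf3r and the beta chains, 8 matched the table, Ly6g had no count in any library, and the sums were 7.36 to 31.7, 11.1 to 36.2 and 0.940 to 15.9 CPM. The 10 oligodendrocyte-lineage markers summed to 163 to 356, 273 to 329 and 184 to 305 CPM in the same order. Sums of the 10 astrocyte markers were 20.7 to 110, 25.2 to 104 and 26.3 to 56.9 CPM. The neuronal sums were thus lower in every co-culture library than in any library of microglia alone. The microglial sums with untreated neurons lay above those of microglia alone, while those with fibril-loaded neurons overlapped both other groups. The neutrophil and monocyte, oligodendrocyte and astrocyte sums overlapped between groups. The part of these sums in the receptor levels given below was not tested. In such bulk samples, fewer cells of a type and less RNA per cell cannot be told apart.

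The 2 beta chain genes have nearly the same coding sequence, which bears on whether their counts can be separated. They lie on opposite strands 20030 bases apart on chromosome 15 (GRCm38), with Csf2rb at 78325752 to 78353847 on the plus strand and Csf2rb2 at 78282507 to 78305721 on the minus strand. Over 2628 aligned coding bases, 2503 were identical (95.2%). A coding stretch of 120 bases from the GENCODE transcripts, the one with the most differences, shows 22 mismatches in capitals, at coding positions 309 to 428 of Csf2rb and 312 to 431 of Csf2rb2.
Csf2rb: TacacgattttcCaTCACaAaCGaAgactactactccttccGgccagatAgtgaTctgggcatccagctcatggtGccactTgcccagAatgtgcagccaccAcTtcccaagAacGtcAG
Csf2rb2: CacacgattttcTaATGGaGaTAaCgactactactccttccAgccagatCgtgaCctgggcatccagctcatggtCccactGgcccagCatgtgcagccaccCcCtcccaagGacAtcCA
The library kit reads from the 3′ end of transcripts, where the genes differ more. The last 500 bases of the annotated transcripts were 86.2% identical over 464 aligned bases, and none of the 451 words of 50 bases in either was found in the other gene's transcript. Over the whole transcript, 892 of 4715 such words of Csf2rb (18.9%) were shared. Which 3′ ends were used in these cells, and how reads matching both genes were counted, is not given in the sources used here, so the split between the pair is uncertain and their sum is given as well.

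Promoter windows, 250 bases before to 50 bases after the start site, were taken from the RefSeq table (GRCm38.p6) for 6 of the 9 genes. Csf1r was left out of this search by choice, and no entry was matched for Csf2rb or Il10ra. They are shown for Csf2rb2, Il4ra and Ifngr1, which among those 6 differed most between fibril-loaded neurons and microglia alone, with motif matches in capitals. Both strands were searched for TTCNNNNGAA (the spacing preferred by STAT6), TTCNNNGAA (the spacing of other STAT factors), GAGGAA (the core bound by PU.1, the product of Spi1) and TTGCNNAA (letters of the C/EBP site). Csf2rb2 lies on the minus strand at chr15:78305672-78305971, Il4ra on the plus strand at chr7:125552021-125552320 and Ifngr1 on the plus strand at chr10:19591699-19591998.
Csf2rb2: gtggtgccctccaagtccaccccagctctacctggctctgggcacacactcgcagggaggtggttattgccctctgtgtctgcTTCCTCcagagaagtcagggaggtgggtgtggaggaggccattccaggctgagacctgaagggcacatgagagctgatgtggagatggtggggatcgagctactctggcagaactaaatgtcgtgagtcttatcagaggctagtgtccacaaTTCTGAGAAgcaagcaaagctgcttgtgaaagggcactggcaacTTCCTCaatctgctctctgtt
Il4ra: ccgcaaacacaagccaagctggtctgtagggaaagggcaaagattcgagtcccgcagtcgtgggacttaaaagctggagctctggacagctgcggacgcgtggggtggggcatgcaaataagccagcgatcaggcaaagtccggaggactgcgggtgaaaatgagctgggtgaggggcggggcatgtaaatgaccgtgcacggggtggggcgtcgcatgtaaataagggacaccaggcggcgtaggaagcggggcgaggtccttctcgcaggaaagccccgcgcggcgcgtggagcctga
Ifngr1: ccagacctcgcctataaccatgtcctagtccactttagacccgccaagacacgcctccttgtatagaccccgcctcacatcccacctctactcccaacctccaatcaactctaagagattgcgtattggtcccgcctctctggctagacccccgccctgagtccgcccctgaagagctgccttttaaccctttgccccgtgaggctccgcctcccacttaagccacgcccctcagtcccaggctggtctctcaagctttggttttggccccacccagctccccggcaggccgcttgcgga
Csf2rb2 held TTCTGAGAA, first base at position -15 from the start, and GAGGAA on the other strand (printed as TTCCTC) at positions -167 and 30 from the start, with no overlap between matches. Il4ra and Ifngr1 held none of the motifs, which says only that these letters are not in these windows. Csf2ra held GAGGAA at positions -14 and -8, side by side, Csf3r held it at -86, and Il6ra held it on the other strand at -70. For Csf2ra and Csf3r the start of the promoter entry is not the outermost annotated start of the gene. The Csf3r window, chr4:126024409-126024708, lies wholly downstream of the RefSeq gene start at 126023441. Their positions therefore hold only for the start of that entry. Of all 32851 promoter windows of the same length, 6.95% held TTCNNNNGAA, 8.30% held TTCNNNGAA, 28.3% held GAGGAA and 10.8% held TTGCNNAA. A match is a run of letters and was not tested as a binding site.

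Csf2rb2 showed the widest separation of the 9 genes between co-culture and microglia alone. Libraries with fibril-loaded neurons had 205, 204, 158 and 157 CPM, those with untreated neurons 231, 130.2 and 191 CPM, and microglia alone 39.9, 64.1, 15.1 and 12.04 CPM. Every co-culture library lay above every library of microglia alone, and both kinds of co-culture overlapped. Group means were 181 ± 26.7 (SD, n = 4), 184 ± 50.8 (n = 3) and 32.8 ± 24.3 CPM (n = 4). The log2 fold change over microglia alone was 2.47 (SE 0.43) with fibril-loaded neurons and 2.49 (SE 0.45) with untreated neurons, and that of fibril-loaded over untreated neurons was -0.03 (SE 0.44). The lowest library of microglia alone still held 144 counts of the gene.

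**Figure D1:**
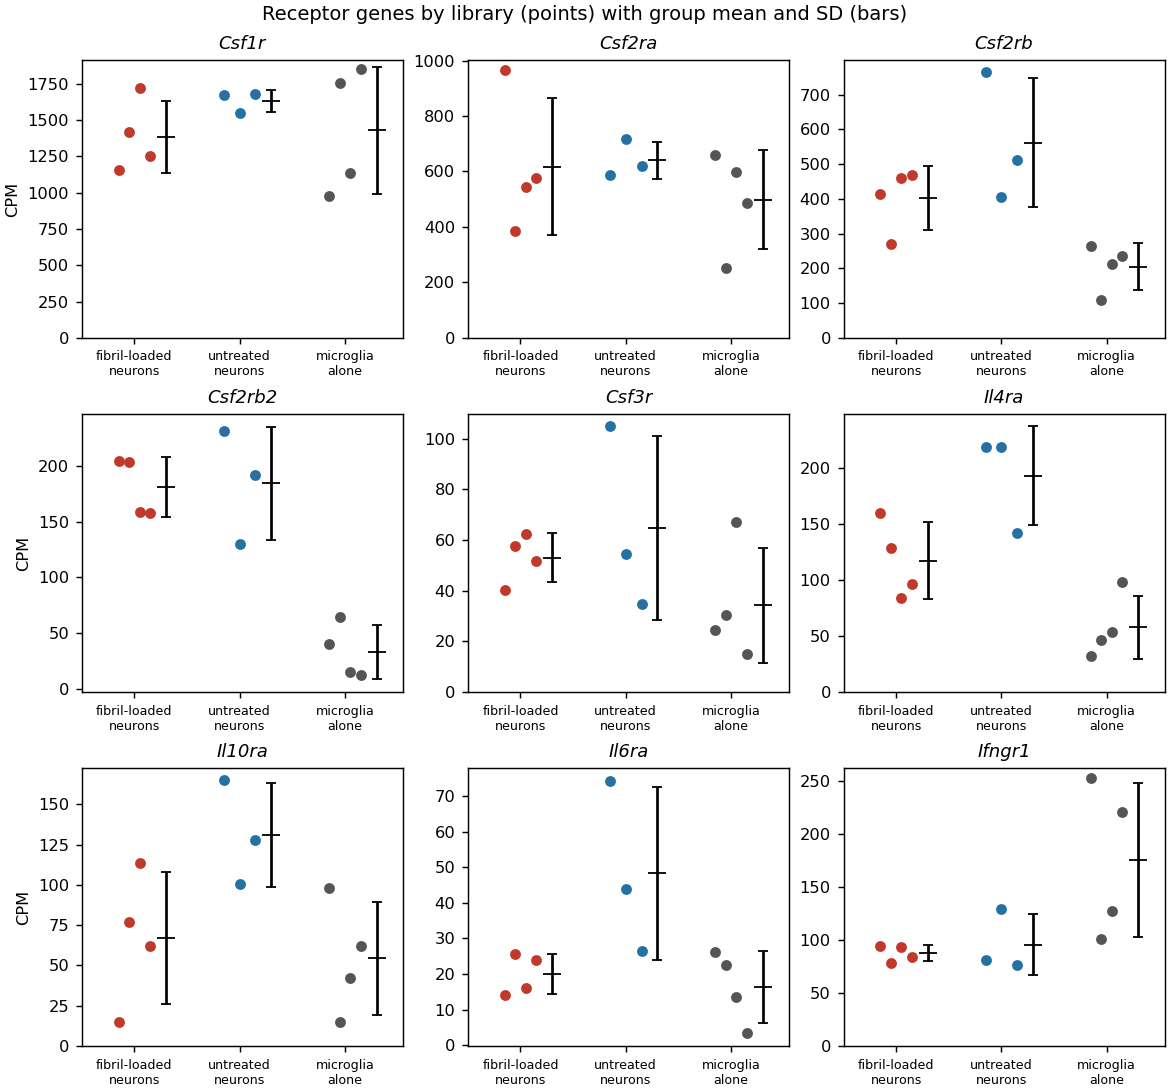
CPM (scaled counts, linear axis from 0, a scale of its own in each panel) of the 9 receptor genes in each library, with groups in the order fibril-loaded neurons, untreated neurons, microglia alone. Points are libraries, and bars give the mean and SD. Csf2rb2 and Csf2rb lie higher in all 7 co-culture libraries, and Ifngr1 lies lower in all 4 libraries with fibril-loaded neurons, than in any library of microglia alone.

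Csf2rb, the common beta chain, had 414, 270.1, 461 and 468 CPM with fibril-loaded neurons, 767, 405 and 513 CPM with untreated neurons and 263, 109, 211 and 236 CPM in microglia alone. The co-culture libraries again lay above those of microglia alone, with a narrow gap between library 2 with fibril-loaded neurons and library 1 of microglia alone. The log2 fold changes over microglia alone were 0.98 (SE 0.30) with fibril-loaded and 1.45 (SE 0.32) with untreated neurons, and -0.48 (SE 0.32) for fibril-loaded over untreated neurons. Summed, Csf2rb and Csf2rb2 averaged 584 ± 73.7 CPM with fibril-loaded neurons (SD, n = 4), 746 ± 234 CPM with untreated neurons (n = 3) and 238 ± 53.9 CPM alone (n = 4).

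The share of Csf2rb2 in the pair's counts varied most in microglia alone. It was 33.1, 43.0, 25.6 and 25.2% with fibril-loaded neurons, 23.2, 24.3 and 27.2% with untreated neurons and 13.2, 37.1, 6.68 and 4.85% in microglia alone. Library 2 of microglia alone, which has the lowest Csf2rb and the highest Csf2rb2 of its group, had a share in the range of the fibril-loaded libraries, while its summed level was as low as in the rest of its group. The summed level therefore separated co-culture from microglia alone in every library, and the share did not.

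**Figure D2:**
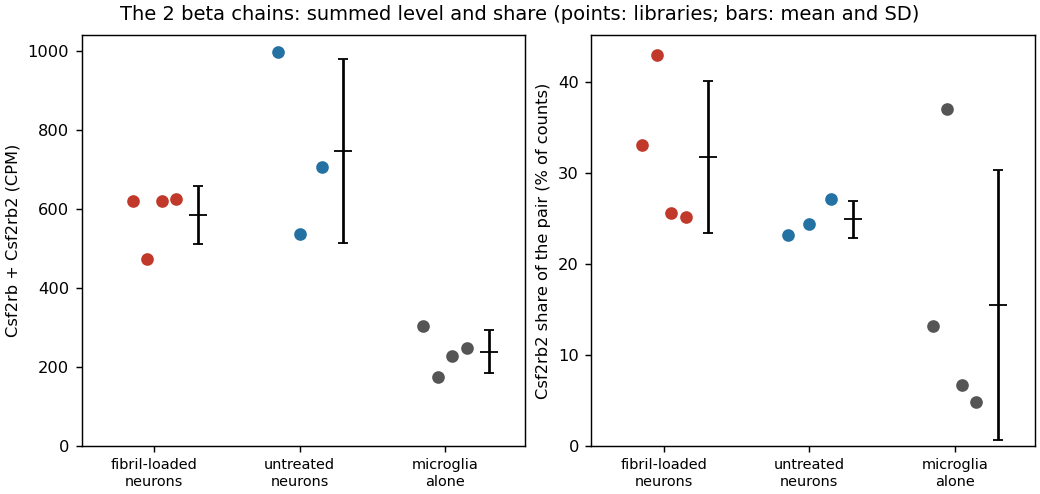
Left, summed CPM of Csf2rb and Csf2rb2 by library; right, the share of the pair's counts assigned to Csf2rb2, in percent, for fibril-loaded neurons, untreated neurons and microglia alone. Points are libraries, and bars give the mean and SD; the sums do not overlap with microglia alone, and 1 library of microglia alone has a share of 37.1%.

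Csf2ra, the alpha chain of the GM-CSF receptor and a partner of Csf2rb, had 966, 384, 543 and 578 CPM with fibril-loaded neurons, 588, 716 and 619 CPM with untreated neurons and 658, 252, 599 and 486 CPM in microglia alone. Its groups overlapped throughout. Its log2 fold change was 0.31 (SE 0.31) for fibril-loaded neurons over microglia alone, 0.36 (SE 0.33) for untreated neurons over microglia alone and -0.05 (SE 0.33) for fibril-loaded over untreated neurons. The difference between the beta and alpha chains in these fold changes was not tested. Il3ra, the alpha chain of the interleukin-3 receptor that pairs with both beta chains, was sparse at means of 7.58, 1.44 and 6.61 CPM with fibril-loaded neurons, untreated neurons and alone, with 2 libraries at 0.

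Csf3r, the receptor for the neutrophil growth factor G-CSF, had 40.3, 57.6, 62.5 and 51.6 CPM with fibril-loaded neurons, 105, 54.6 and 34.7 CPM with untreated neurons and 24.4, 30.3, 67.0 and 14.9 CPM in microglia alone. Its groups overlapped, and library 1 with untreated neurons and library 3 of microglia alone stood highest in their groups. The log2 fold change over microglia alone was 0.63 (SE 0.49) with fibril-loaded and 0.92 (SE 0.52) with untreated neurons, and -0.29 (SE 0.53) for fibril-loaded over untreated neurons.

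Csf1r, on chromosome 18 at 61100598 to 61132149 (plus strand, GRCm38), had 1156, 1418, 1719 and 1251 CPM with fibril-loaded neurons, 1674, 1546 and 1677 CPM with untreated neurons and 974, 1753, 1134 and 1855 CPM in microglia alone. The libraries of microglia alone spanned both the lowest and the highest value, so the groups overlapped. On the log2 scale the fold change was -0.04 (SE 0.25) for fibril-loaded neurons over microglia alone, 0.19 (SE 0.27) for untreated neurons over microglia alone and -0.24 (SE 0.27) for fibril-loaded over untreated neurons, and the first of these was 0.06 without a scaling factor. The gene overlaps the opposite-strand gene Hmgxb3, and whether counting used strand is not given in the sources used here.

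Il4ra, the ligand-binding chain for interleukin-4 that also serves interleukin-13, had 160.1, 129, 84.1 and 95.9 CPM with fibril-loaded neurons, 219, 218 and 142 CPM with untreated neurons and 32.0, 46.7, 53.5 and 98.1 CPM in microglia alone. All 3 libraries with untreated neurons were above every library of microglia alone, whereas library 4 of microglia alone overlapped the libraries with fibril-loaded neurons. Group means were 117 ± 34.2 (SD, n = 4), 193 ± 44.4 (n = 3) and 57.6 ± 28.5 CPM (n = 4). The log2 fold change over microglia alone was 1.03 (SE 0.36) with fibril-loaded and 1.75 (SE 0.38) with untreated neurons, and -0.72 (SE 0.38) for fibril-loaded over untreated neurons. The antisense model Gm44876 overlaps Il4ra, as Gm20612 does Il10ra and Gm42809 does Il6ra, so reads of the partners cannot be told apart if strand was not used.

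Il10ra, the ligand-binding chain for the anti-inflammatory cytokine interleukin-10, had 14.7, 77.2, 114 and 62.2 CPM with fibril-loaded neurons, 165, 100.4 and 128 CPM with untreated neurons and 98.4, 15.2, 42.2 and 62.4 CPM in microglia alone. The 3 libraries with untreated neurons lay above all those of microglia alone, with a narrow gap, while the fibril-loaded group overlapped both others. Il6ra, the ligand-binding chain for interleukin-6, had 14.1, 25.7, 16.1 and 23.9 CPM with fibril-loaded neurons, 74.3, 44.0 and 26.4 CPM with untreated neurons and 26.2, 22.4, 13.6 and 3.34 CPM in microglia alone. The untreated group lay above both others, by a margin of under 1 CPM at its lowest library. The log2 fold changes over microglia alone were 0.30 (SE 0.52) and 0.28 (SE 0.67) for Il10ra and Il6ra with fibril-loaded neurons, and 1.26 (SE 0.55) and 1.55 (SE 0.72) with untreated neurons. For fibril-loaded over untreated neurons they were -0.97 (SE 0.55) for Il10ra and -1.27 (SE 0.72) for Il6ra, the 2 widest of the 9 genes, with Il6ra read from as few as 40 counts in 1 library.

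Ifngr1 ran the other way. It had 94.5, 78.4, 93.7 and 84.2 CPM with fibril-loaded neurons, 81.2, 129 and 76.5 CPM with untreated neurons and 253, 101, 127 and 221 CPM in microglia alone. The fibril-loaded libraries were close together and all below microglia alone, while library 2 with untreated neurons lay inside the range of microglia alone. Group means were 87.7 ± 7.78 (SD, n = 4), 95.6 ± 29.1 (n = 3) and 175 ± 72.9 CPM (n = 4). The log2 fold change over microglia alone was -0.9998 (SE 0.33) with fibril-loaded and -0.88 (SE 0.36) with untreated neurons, and -0.12 (SE 0.35) for fibril-loaded over untreated neurons.

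**Figure D3:**
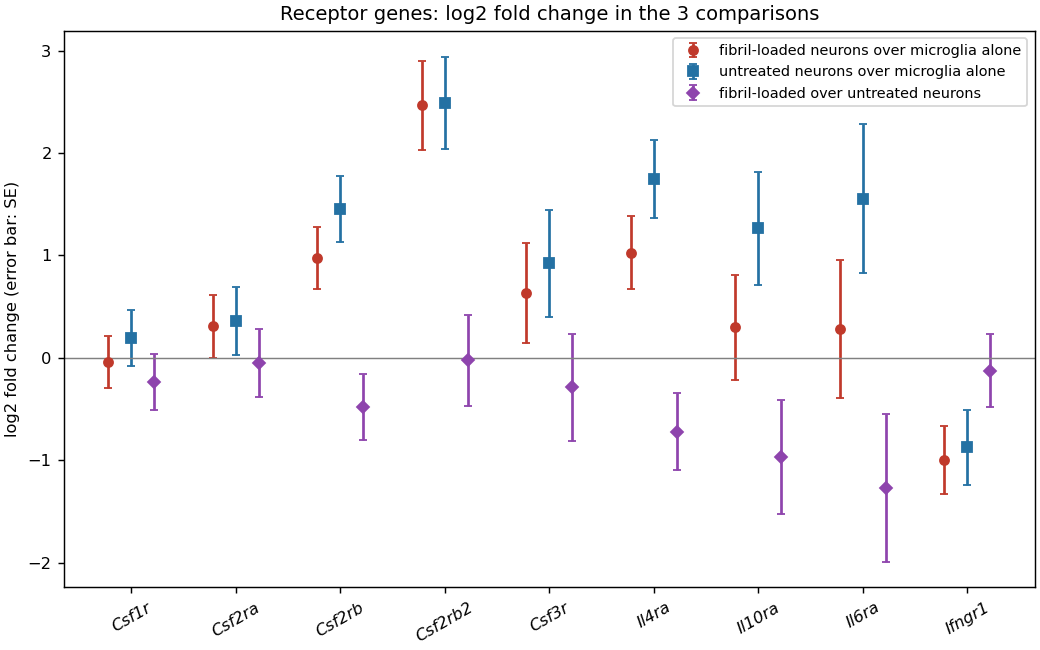
Log2 fold change of each receptor gene (vertical axis; 0 is no difference) for fibril-loaded neurons over microglia alone, untreated neurons over microglia alone and fibril-loaded over untreated neurons. Points are estimates of the edgeR fit and bars their SE; the first 2 comparisons share the libraries of microglia alone. Csf2rb2 is at 2.47 and 2.49 in these and Ifngr1 at -0.9998 and -0.88, and all 9 estimates for fibril-loaded over untreated neurons lie below 0, 5 of them by less than 1 SE.

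Counts of genes past a threshold are given only beside the share among all 11276 genes tested, and nothing is read from them because the levels chose the genes. With fibril-loaded neurons over microglia alone, 1 of the 9 receptor genes was higher at a Benjamini-Hochberg adjusted p under 0.05 in edgeR's quasi-likelihood test (Csf2rb2), against 0.266% of all genes. In that comparison the CPM ranges were apart and higher for 2 receptor genes (2.7% of all genes) and apart and lower for 1 (2.92%). With untreated neurons over microglia alone, 3 were past the threshold and higher (Csf2rb, Csf2rb2 and Il4ra; 0.461% of all genes), 5 had ranges apart and higher (4.9%) and 0 had ranges apart and lower (5.45%). For fibril-loaded over untreated neurons, 0 passed (0% of all genes) and 1, Il6ra, had ranges apart (4.68%). None of the 11276 genes tested passed in that last comparison with edgeR, where 445 had an unadjusted p under 0.05. DESeq2 called 158 genes and limma 0, and none of the 158 was a receptor gene listed here. The median log2 fold change of the 9 genes was 0.31, 1.26 and -0.29 in these comparisons, against -0.04, -0.05 and 0 over all genes tested. The comparisons share libraries, so their values are not independent of each other.

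The count of 3 with untreated neurons moved with the libraries and groups in the fit. Leaving out each of the 7 compared libraries in turn, Csf2rb was past the threshold only without library 2 of the untreated neurons, and Il4ra only without library 3 of the untreated neurons or library 4 of microglia alone, so that the count was 1 to 2. In a fit of the 2 compared groups only it was 0, Csf2rb2 included. It was also 0 when the library with the fewest detected genes was dropped from every group, a choice made after the data were seen. The count of 1 with fibril-loaded neurons was 1 in each of these fits.

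The partner chains of these receptors were less uniform. Ifngr2, the signalling partner of Ifngr1, had 125, 159.6, 122 and 159 CPM with fibril-loaded neurons, 177, 136 and 175 CPM with untreated neurons and 94.3, 71.5, 90.6 and 86.1 CPM in microglia alone. All co-culture libraries were above microglia alone, but its log2 fold changes of 0.72 (SE 0.28) with fibril-loaded and 0.92 (SE 0.30) with untreated neurons had edgeR adjusted p-values of 0.479 and 0.208. Il10rb, the partner of Il10ra, averaged 96.3 ± 31.0, 132 ± 16.6 and 74.9 ± 17.2 CPM with fibril-loaded neurons (SD, n = 4), untreated neurons (n = 3) and alone (n = 4), with an adjusted p of 0.415 for untreated neurons over microglia alone. Il13ra1, which joins Il4ra in the receptor for interleukin-13, had 33.3, 14.5, 27.3 and 27.6 CPM with fibril-loaded neurons, 39.2, 8.42 and 4.39 CPM with untreated neurons and 0, 3.77, 0.0886 and 18.6 CPM alone, and its groups overlapped. None of the 6 partner chains tested passed in any comparison. Il2rg, the common gamma chain that joins Il4ra for interleukin-4, averaged 188 ± 41.0, 180.2 ± 53.7 and 192 ± 80.4 CPM in the same group order, and Il6st, the gp130 chain that joins Il6ra, 10.6 ± 7.88, 16.8 ± 4.96 and 25.2 ± 12.7 CPM; both were added to complete the pairs after their values were seen.

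**Figure D4:**
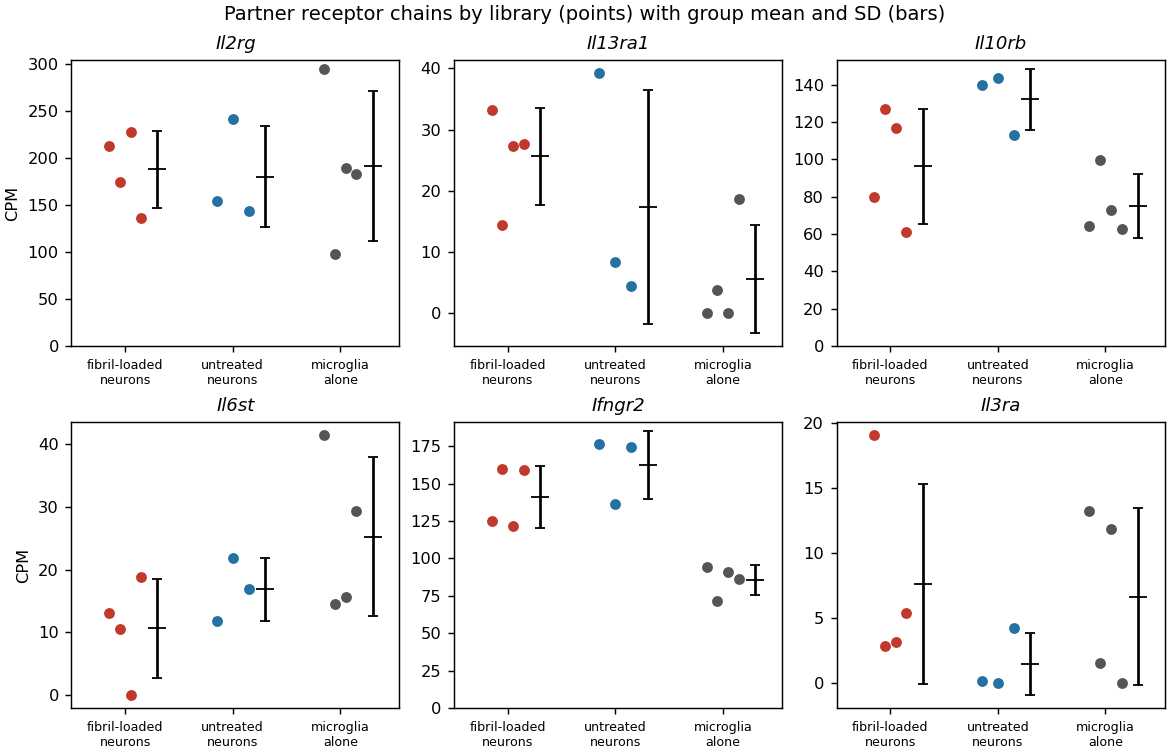
CPM (linear axis from 0, a scale of its own in each panel) of 6 partner chains by library for fibril-loaded neurons, untreated neurons and microglia alone. Points are libraries, and bars give the mean and SD; Ifngr2 lies higher in all 7 co-culture libraries, and Il2rg overlaps in all groups.

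Ligand transcripts were scarce in these libraries. The libraries are of microglia, so ligand levels in the neurons were not measured. Of 11 ligand genes listed, 5 matched the table, Il34 was at 0 throughout, and 3 passed the low-count filter. Csf3, which did not pass it, had 10.4 CPM in library 3 with fibril-loaded neurons and was at 0 in 10 libraries. Csf1, a ligand of CSF1R, averaged 13.96 CPM with fibril-loaded neurons, 3.69 CPM with untreated neurons and 2.89 CPM alone, with 2 libraries at 0 and widely spread values. Il10 had counts in 3 libraries and Il6 in 3, none above 5.69 CPM, and no ligand passed in any comparison.

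Around the receptors, 158 pathway genes were listed in 11 groups, of which 135 matched the table, 9 were at 0 throughout and 115 were tested. With fibril-loaded neurons over microglia alone, 2 rose and 0 fell, against 0.319% of all genes called in either direction, and with untreated neurons over microglia alone 3 rose and 0 fell, against 0.639%. None passed for fibril-loaded over untreated neurons. There 6 were higher and 1 lower at an unadjusted edgeR p under 0.05, against 445 of all 11276 genes in either direction. At that level, 19 were higher and 8 lower with fibril-loaded neurons over microglia alone, against 918 of all 11276 genes. With untreated neurons over microglia alone, 24 were higher and 12 lower, against 1164 of all 11276 genes. The lists were chosen with earlier results of these data known, so nothing is read from these counts. The median log2 fold change over the 115 genes was 0.13, 0.36 and -0.16 for fibril-loaded neurons over microglia alone, untreated neurons over microglia alone and fibril-loaded over untreated neurons.

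Among 15 genes known to be induced by interleukin-4 or interleukin-13, 8 were tested, and Tgm2 and Fn1 rose. Tgm2, the protein-crosslinking enzyme transglutaminase 2, had 404, 352, 401 and 312 CPM with fibril-loaded neurons, 224, 318 and 356 CPM with untreated neurons and 19.8, 0, 6.47 and 5.27 CPM in microglia alone. No co-culture library came near those of microglia alone. On the log2 scale the fold change over microglia alone was 5.53 (SE 0.75) with fibril-loaded neurons, edgeR adjusted p = 0.000694, and 5.24 (SE 0.75) with untreated neurons, adjusted p = 0.00153. Fn1, the matrix protein fibronectin, had 100.1, 173, 153 and 112 CPM with fibril-loaded neurons, 26.2, 85.2 and 98.7 CPM with untreated neurons and 14.3, 14.1, 26.5 and 33.8 CPM alone. It was higher in 4 of 4 libraries with fibril-loaded neurons than in any other library, and passed for fibril-loaded neurons over microglia alone with a log2 fold change of 2.60 (SE 0.45) and edgeR adjusted p = 0.00584, but not for untreated neurons (adjusted p = 0.112). The direct contrast of fibril-loaded over untreated neurons was 0.94 (SE 0.46) for Fn1, adjusted p = 1. The classical members of the list did not pass: Arg1, the arginase, averaged 14.7, 17.6 and 0.545 CPM and Mrc1, the mannose receptor, 157, 194 and 317 CPM with fibril-loaded neurons, untreated neurons and alone. Egr2, a transcription factor of the same list, averaged 4.78, 0.0202 and 10.4 CPM in the same order. Across the 8 genes tested the median log2 fold change over microglia alone was -0.12 with fibril-loaded and 0.75 with untreated neurons.

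**Figure D5:**
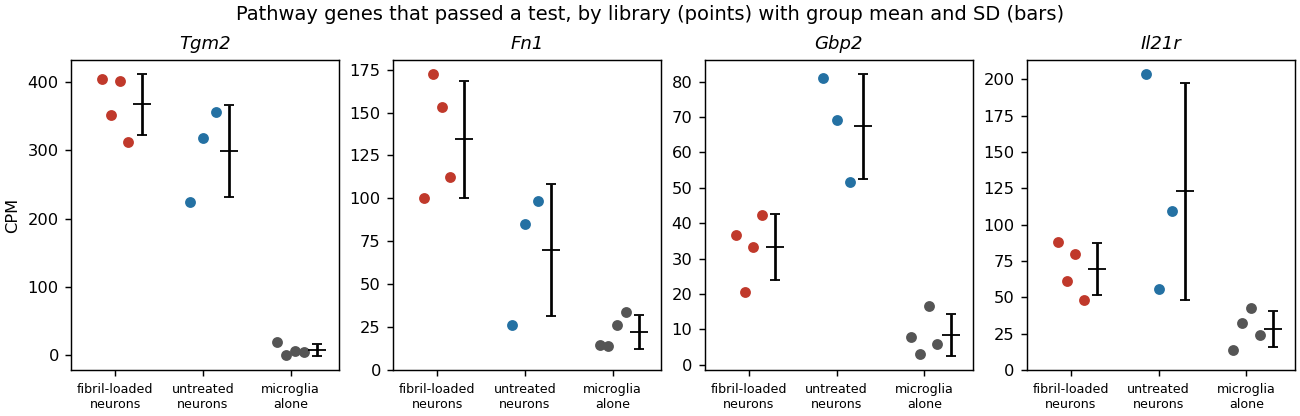
CPM (linear axis from 0, a scale of its own in each panel) by library of the 4 pathway genes that passed in at least 1 comparison, for fibril-loaded neurons, untreated neurons and microglia alone. Points are libraries, and bars give the mean and SD; Tgm2 is at most 19.8 CPM alone and at least 224 CPM in co-culture.

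Of 18 interferon-γ-induced genes, 13 were tested and 1 rose with untreated neurons, 0 with fibril-loaded neurons. Gbp2, a guanylate-binding GTPase of cell defence, had 36.8, 20.7, 33.2 and 42.4 CPM with fibril-loaded neurons, 81.1, 69.2 and 51.7 CPM with untreated neurons and 7.91, 3.07, 16.7 and 5.94 CPM alone. The 3 groups did not overlap, with the untreated group highest. Its log2 fold change for untreated neurons over microglia alone was 3.00 (SE 0.63), edgeR adjusted p = 0.0277, and it passed in 1 of 7 fits with a library left out, that without library 3 of microglia alone. Igtp, an interferon-induced GTPase, averaged 48.6 ± 31.2, 73.0 ± 10.9 and 19.4 ± 4.11 CPM and the adhesion molecule Icam1 111 ± 62.0, 72.7 ± 41.1 and 38.2 ± 25.5 CPM with fibril-loaded neurons (SD, n = 4), untreated neurons (n = 3) and alone (n = 4), and neither passed. Across the 13 genes the median log2 fold change over microglia alone was 1.18 with fibril-loaded and 1.37 with untreated neurons.

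Of 12 genes known to be induced by interleukin-10 or interleukin-6, 12 were tested, and Il21r, the interleukin-21 receptor, rose with untreated neurons. It had 88.1, 61.2, 79.6 and 48.3 CPM with fibril-loaded neurons, 204, 55.9 and 109 CPM with untreated neurons and 13.5, 32.2, 42.6 and 24.0 CPM alone. The co-culture libraries all lay above microglia alone, and library 1 with untreated neurons stood highest. Its log2 fold change for untreated neurons over microglia alone was 2.13 (SE 0.47), edgeR adjusted p = 0.0391, which passed in 2 of 7 fits with a library left out, those without library 2 of the untreated neurons or library 3 of microglia alone. The AP-1 subunit Junb averaged 511 ± 75.6, 476 ± 59.9 and 287 ± 94.2 CPM with fibril-loaded neurons (SD, n = 4), untreated neurons (n = 3) and alone (n = 4), and the NF-κB cofactor Bcl3 23.6 ± 6.84, 34.9 ± 17.2 and 3.87 ± 3.90 CPM; neither passed. The median log2 fold change of the 12 genes over microglia alone was 0.78 with fibril-loaded and 0.76 with untreated neurons. Il21r also belongs to the list of other cytokine receptors, where it was the 1 gene of 14 tested that passed. In that list Ifnar1, a chain of the type I interferon receptor, averaged 222 ± 54.7, 185 ± 9.77 and 90.1 ± 34.9 CPM in the same order, with an edgeR adjusted p of 0.100 for fibril-loaded neurons over microglia alone.

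The signal carriers and their inhibitors did not pass in any comparison. Among 10 JAK kinases and STAT factors tested, Tyk2, a JAK-family kinase, averaged 87.0 ± 45.1 CPM with fibril-loaded neurons (SD, n = 4), 37.6 ± 5.84 CPM with untreated neurons (n = 3) and 84.1 ± 10.3 CPM alone (n = 4), with an edgeR adjusted p of 0.334 for untreated neurons over microglia alone. Among 12 adaptors, Shc1 averaged 55.4 ± 13.8, 80.9 ± 13.1 and 30.2 ± 22.6 CPM in the same order, and among 19 inhibitors tested the docking protein Dok2 averaged 193 ± 84.3, 103 ± 13.3 and 238 ± 86.3 CPM. Socs3, the feedback inhibitor of gp130 signalling, averaged 49.5 ± 47.9, 65.2 ± 55.2 and 11.6 ± 13.5 CPM, and its SD was near its mean in every group. Median log2 fold changes over microglia alone with fibril-loaded and untreated neurons were 0.09 and 0.18 for the kinases and STAT factors. They were 0.14 and 0.26 for the adaptors and -0.25 and -0.22 for the inhibitors.

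Genes induced by colony-stimulating factors did not pass either, with 11 tested. Ccnd1, the G1 cyclin, had 1429.9, 449.7, 331 and 957 CPM with fibril-loaded neurons, 329, 363 and 206 CPM with untreated neurons and 1308, 1393, 1839.7 and 356 CPM in microglia alone. The groups overlapped, with library 4 of microglia alone among the untreated-neuron values. Its log2 fold change for untreated neurons over microglia alone was -2.03 (SE 0.49) with an edgeR adjusted p of 0.0614, and for fibril-loaded over untreated neurons 1.40 (SE 0.48) with an adjusted p of 1. Bcl2l1, which encodes the survival protein BCL-XL, averaged 103 ± 20.0, 71.4 ± 45.5 and 180.3 ± 41.5 CPM with fibril-loaded neurons (SD, n = 4), untreated neurons (n = 3) and alone (n = 4), and both co-cultures lay below microglia alone without passing. The median log2 fold change of the 11 genes over microglia alone was -0.11 with fibril-loaded and -0.75 with untreated neurons.

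The genes whose levels followed each receptor most closely over the 11 libraries were taken as those with the highest Pearson r of log2(CPM + 1) among the 3118 genes that averaged 50 CPM or more. For Csf2rb2 these were Usp12 (r = 0.946), Pmepa1 (0.940) and Rnf114 (0.925), and for Csf2rb they included Syk (0.886) and Irf7 (0.882). For Il4ra they were Trim14 (0.933), Srp14 (0.891) and Lrpap1 (0.891), for Il10ra Ssu72 (0.855), Txnl4a (0.844) and Ctsh (0.823), and for Ifngr1 Fabp5 (0.905), Nav1 (0.900) and Zdhhc14 (0.892). Csf2ra went with Fkbp15 (0.965), Scamp2 (0.877) and Fyb (0.843), and Csf1r with Rab8a (0.886), Psap (0.867) and Jtb (0.864). The points share library depth and group, so each r includes the difference between groups, and Csf3r and Il6ra were under the level required.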

How the data were processed

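RNA from 11 libraries of primary microglia was sequenced with the QuantSeq 3′ kit, as the labels' protocols state. Per the submitters' processing notes, STAR, Partek, DESeq2 and the mm10 build were used, with no version given. The authors deposited raw counts per gene symbol and a normalized table, used as a score: 100% of its values equal the deposited count divided by 1 factor per library and rounded, within 1 plus 0.05% of the count. Of 16934 genes, 2828 had no count and 11276 passed filterByExpr. Raw counts were tested in R 4.3.3 with edgeR 4.0.16 (TMM scaling, quasi-likelihood test, group as the only term, all 11 libraries, two-sided, Benjamini-Hochberg adjustment, threshold 0.05). The SE is the log2 fold change divided by the square root of F. CPM is the count over the TMM-scaled library total. The common biological coefficient of variation was 1.15, and no 2 libraries agreed within sampling noise. The code was tested on simulated data. Alternatives were RLE or no scaling, no Rn45s, other low-count filters, DESeq2 1.42.0, limma 3.58.1 on the normalized table with a pseudocount of 1, 2 groups only, the beta chains summed, libraries left out and sets of library codes as a replicate block.

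The receptor genes and gene lists were chosen with earlier results of these data known. Named genes are all receptors, pathway genes past the threshold, up to 2 further per list and comparison with the smallest p, and the 3 closest in pattern to each receptor with a mean of at least 50 CPM. A few genes this rule selects are left out here. Coordinates and transcripts are GENCODE M21, and promoters RefSeq GRCm38.p6.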

Additional observations from a re-analysis of the deposited data

How the results depend on the processing

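With fibril-loaded neurons over microglia alone, 36 genes were called, against 224 with DESeq2, 164 without the low-count filter and 23 to 42 with 1 library left out. Of these, 2 were pathway genes, against 7 with DESeq2 and 5 without the filter, and 1 was a receptor gene under every alternative run (the summed pair where the beta chains were summed). With untreated neurons over microglia alone, 72 genes were called, against 453 with DESeq2, 234 without the filter, 47 at a mean of at least 5 CPM, 41 in a fit of the 2 groups only, 29 when the library with the fewest genes was dropped from every group and 32 to 76 with 1 library left out. Pathway calls there numbered 3, against 17 with DESeq2, 12 without the filter, 1 with 2 groups only, 1 without the libraries with the fewest genes and 1 to 3 with 1 library left out. Receptor calls there numbered 3, against 0 with 2 groups only, 1 at a mean of at least 5 CPM, 0 without the libraries with the fewest genes and 1 to 2 with 1 library left out. For fibril-loaded over untreated neurons, 0 genes were called, against 158 with DESeq2, 5 without the filter, 1 without the libraries with the fewest genes and 0 to 1 with 1 library left out. Pathway calls there were 0, against 1 with DESeq2 and 1 without the filter, and no receptor gene was called under any alternative. Fits with libraries left out hold fewer samples, and the cause of the other shifts was not tested. All 492 alternative log2 fold changes of the receptor genes moved by less than the pooled SD of single libraries within groups. That margin is wide, since leaving out 1 library usually shifts a group mean by only part of this SD. It therefore says little about robustness, and receptor calls with untreated neurons fell from 3 to 0 in some of these fits. Signs turned in some alternatives for estimates near 0, among them Csf1r for fibril-loaded neurons over microglia alone and Csf2rb2, Csf2ra, Csf3r and Ifngr1 for fibril-loaded over untreated neurons, and in 1 alternative each for Il10ra and Il6ra with fibril-loaded neurons over microglia alone. Without a scaling factor the median log2 fold change of all genes moved by 0.11 with fibril-loaded and 0.10 with untreated neurons over microglia alone, and changes are given relative to it under TMM. The labels give no replicate numbers, but the library codes in the titles step evenly in each group and can be cut into 4 sets; the labels do not say what the codes mark. Deviations from the group means correlated at -0.02 to 0.07 over the 10 pairs of libraries from different groups in 1 set and at -0.05 to 0.05 over other such pairs, and 5 of 11 libraries correlated best with their own set. The sets were not taken as pairs in the main fit. No chance level was computed for these correlations, so they do not settle whether the sets mark pairs. With them as a replicate block, chosen after seeing the data, 66 genes were called with fibril-loaded and 95 with untreated neurons over microglia alone and 0 for fibril-loaded over untreated neurons, and the receptor counts were 1, 3 and 0. Depth limits Il6ra and the ligands most, and each group rests on 3 or 4 libraries.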

Other observations

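Transcription factors known to control macrophage Csf1r were tested as a list of 11, and none passed in any comparison while Csf1r itself showed no separation. Maf, a macrophage basic leucine zipper factor, averaged 159 ± 36.3 CPM with fibril-loaded neurons (SD, n = 4), 174 ± 24.5 CPM with untreated neurons (n = 3) and 331 ± 54.9 CPM in microglia alone (n = 4). Maf was lower in all 7 co-culture libraries than in any library of microglia alone. Its edgeR adjusted p for fibril-loaded neurons over microglia alone was 0.116. Cebpa, a myeloid lineage factor, averaged 139 ± 57.5, 151 ± 78.2 and 59.9 ± 2.94 CPM in the same order, and Mef2c, a MADS-box factor, 258 ± 59.2, 207 ± 35.1 and 409.8 ± 76.6 CPM. Spi1, which encodes PU.1, averaged 370.1 ± 40.2, 297 ± 45.0 and 361 ± 126 CPM with overlapping groups. Spi1 was named after its values were seen.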
